A study of Mus musculus with 7 samples.

Results

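The subunits and assembly factors of the 5 complexes of the mitochondrial respiratory chain were followed in mouse colon adenoma cells. The cells were of KO or WT genotype for Mex3a, a gene for an RNA-binding protein of intestinal stem and progenitor cells. Members were taken by symbol from probe sets (the array's groups of probes for 1 transcript) that the platform annotation pairs with a single gene: symbols starting with Nduf for complex I, Sdha to Sdhd for complex II, those starting with Uqcr for complex III, Cox4 to Cox8 for complex IV, and Atp5 for complex V. This gave 148 of 28898 such probe sets and 87 of 17097 genes: 35 complex I subunits, 7 complex I assembly factors (symbols with Ndufaf), 4 genes of complex II, 7 of complex III, 17 of complex IV and 17 of complex V. By the same rule Ndufa4 and its paralog Ndufa4l2 stand with complex I, although the NDUFA4 protein is now placed in complex IV, and Ndufs5-ps carries a pseudogene's symbol. Of the 87 genes, 86 passed the filter on low levels, and Cox7b2, an isoform of testis, did not.

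All animals carried a Tomato reporter allele of Mex3a, the tamoxifen-inducible Cre Villin CreERT2 of the gut epithelium, and a floxed and a normal allele of Apc, the tumour suppressor of the Wnt pathway. In KO animals the second Mex3a allele was floxed and in WT animals it was normal, so the cells of both groups held the reporter. Every animal was given 4 injections of tamoxifen and 2% dextran sulfate sodium (DSS), which injures the colon epithelium, for 5 days, and the adenomas were taken 2 months later. Cells positive for the epithelial protein Epcam and for Tomato, which reads Mex3a promoter activity, were sorted, and RNA from 2000 cells was amplified over 24 cycles and hybridised to 7 Affymetrix arrays. The 3 KO arrays were KO 1 in scan batch 1 and KO 2 and KO 3 in scan batch 2. The 4 WT arrays were WT 1 and WT 2 in scan batch 1 and WT 3 and WT 4 in scan batch 2. The groups were compared to ask how the chain's genes differ between the genotypes. No age is given in the labels, and they do not tie arrays to separate animals, so the spread behind every p-value may be technical in part.

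Complexes I and II pass electrons from NADH and succinate to ubiquinone, complex III passes them on to cytochrome c, and complex IV reduces oxygen with them. Complexes I, III and IV pump protons across the inner mitochondrial membrane, and complex V lets the protons back to make ATP. Most subunits are encoded in the nucleus and imported, while a few core subunits of complexes I, III, IV and V are encoded in mitochondrial DNA. In the colon epithelium, differentiated colonocytes are known for oxidising butyrate through this chain, and tumour cells for relying more on glycolysis. The 13 subunits encoded in mitochondrial DNA were not analysed here, so all values below are of nuclear transcripts.

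The promoters of a few members are shown because the nuclear genes of the chain are known for shared upstream regulators, and the question was whether members on either side of the comparison carry the same letters. Sequences are those of RefSeq on GRCm38.p6, the 200 bases before the transcription start, written 5′ to 3′ on the gene's strand. Capitals mark the palindrome that holds GCATGCGC, the core of the site known for NRF1, an activator of nuclear respiratory genes. Ndufa11, in which every KO array lay below every WT array, and Cox6a1 and Ndufaf4, in which the arrays overlapped, carry it.
Ndufa11, chr17:56717562-56717761, plus strand: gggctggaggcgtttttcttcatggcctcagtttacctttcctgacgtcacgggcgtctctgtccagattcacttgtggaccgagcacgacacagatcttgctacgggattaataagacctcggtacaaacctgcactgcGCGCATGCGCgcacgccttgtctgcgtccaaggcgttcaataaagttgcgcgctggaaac
Cox6a1, chr5:115348959-115349158, minus strand: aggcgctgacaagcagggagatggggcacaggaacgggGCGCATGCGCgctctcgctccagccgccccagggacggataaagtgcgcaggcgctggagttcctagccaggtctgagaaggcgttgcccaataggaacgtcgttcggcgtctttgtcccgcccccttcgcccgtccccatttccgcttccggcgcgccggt
Ndufaf4, chr4:24897883-24898082, plus strand: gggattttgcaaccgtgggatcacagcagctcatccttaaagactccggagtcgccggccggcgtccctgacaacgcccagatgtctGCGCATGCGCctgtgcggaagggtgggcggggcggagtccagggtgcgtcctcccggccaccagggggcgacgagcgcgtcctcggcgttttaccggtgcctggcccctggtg
In Ndufb3 and Cox7a2 every KO array lay above every WT array, and in Atp5b every KO array lay below. Their 3 promoters held none of the 4 motifs searched.
Ndufb3, chr1:58586197-58586396, plus strand: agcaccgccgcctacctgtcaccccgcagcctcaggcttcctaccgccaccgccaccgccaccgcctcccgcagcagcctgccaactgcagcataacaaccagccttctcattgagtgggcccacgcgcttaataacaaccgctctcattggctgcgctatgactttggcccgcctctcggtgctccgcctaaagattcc
Cox7a2, chr9:79759854-79760053, minus strand: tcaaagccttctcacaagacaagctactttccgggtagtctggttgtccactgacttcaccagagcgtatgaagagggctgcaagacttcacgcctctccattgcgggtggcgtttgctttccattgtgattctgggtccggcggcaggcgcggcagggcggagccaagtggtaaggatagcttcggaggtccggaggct
Atp5b, chr10:128083107-128083306, plus strand: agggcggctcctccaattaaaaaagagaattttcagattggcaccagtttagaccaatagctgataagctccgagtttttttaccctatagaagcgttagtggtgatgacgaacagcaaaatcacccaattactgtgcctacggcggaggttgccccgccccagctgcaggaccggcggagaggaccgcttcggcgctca

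The search covered 250 bases before to 50 after each start, on both strands, with a gene counted once if any of its promoters matched. Promoters were found for 70 of the 87 members and for 10247 of the genes tested. The NRF1 core GCATGCGC, which can overlap its own reverse complement, stood in 12 of 70 members (17.1%), against 549 of all tested genes (5.36%). The letters of the YY1 site, AAGATGGC, stood in 11 members (15.7%) and in 499 of all (4.87%), and those of the ERR site, AAGGTCA, in 7 members (10%) and in 455 of all (4.44%). The ETS site of GABP, CCGGAAGT, was in 4 members (5.71%) and in 824 of all (8.04%). None of these 4 strings of letters contains another. The 12 members with the NRF1 core had a median log2 difference, KO minus WT, of 0.047 with 7 positive. The 57 tested members without it had 0.10 with 48 positive. Medians of members with the other letters were 0.031 for YY1 (8 of 11 positive), 0.072 for ETS (3 of 4) and 0.081 for ERR (7 of 7). Without them each median was 0.10. Of 12 matched members higher in KO at an unadjusted p under 0.05 in limma, 1 held the YY1 letters. The NRF1, ETS and ERR letters stood in 0 of these 12. These shares and medians are descriptions of letters and levels, with no test.

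The log2 level of Mex3a itself was 6.18, 6.29 and 6.07 in KO 1 to KO 3, against 7.41, 7.38, 7.50 and 7.01 in WT 1 to WT 4. Every KO array lay below every WT array, by a fitted log2 difference of -1.13 (SE 0.13), with an adjusted p of 0.142 in limma over all genes and a two-sided exact permutation p of 0.0286, the smallest that the 35 splits of 7 arrays allow. Whether its probe set lies within the floxed segment is not known, so this is only a partial check of the labels. The sort was also checked by markers: Epcam averaged 11.94 ± 0.06 in KO and 11.94 ± 0.05 in WT (SD, n = 3 and n = 4), while the leukocyte gene Ptprc, at 4.16 ± 0.09 in KO and 4.07 ± 0.04 in WT, lay below the level filter. Of the 11 leukocyte markers on the array, however, 8 passed that filter, with mean deviations of -0.11, 0.078 and 0.12 in KO 1 to KO 3 and -0.081, -0.012, -0.011 and 0.018 in WT 1 to WT 4. Among them Lyz2, a lysozyme of myeloid cells, read 12.39, 12.53 and 12.42 in KO, against 11.63, 12.30, 12.26 and 11.95 in WT. Every KO array of Lyz2 lay above every WT array, with a difference of 0.39 (SE 0.15) and an adjusted p of 0.414 in limma, and the macrophage genes Cd68 and Csf1r averaged 7.26 and 6.84 in KO and 7.32 and 6.93 in WT. The part of leukocyte RNA in the results was not tested. In bulk samples fewer cells of a type and less RNA per cell cannot be told apart.

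No respiratory chain gene passed the test, and most stood slightly higher in KO. Of the 86 genes tested, 64 had a positive fitted difference and 22 a negative one (74.4% positive, against 43.9% of all 12822 genes tested), with a median of 0.085 against -0.019 over all genes. The single differences ran between -0.19 and 0.54, and in 2 genes, Uqcrb and Ndufaf1, they exceeded 0.5. At an adjusted p under 0.05 (limma with scan batch as covariate, Benjamini-Hochberg over all genes) 0 of the 86 were called, as were 0% of all genes, and the smallest adjusted p among members was 0.391. At an unadjusted p under 0.05, 15 members were higher in KO (17.4%, against 7.14% of all genes) and 1, Atp5b, was lower (1.16%, against 4.26%). Every KO array lay above every WT array in 4 members, Ndufb3, Ndufa10, Uqcrq and Cox7a2 (4.65%, against 2.68% of all genes). Every KO array lay below every WT array in 3 members, Ndufa11, Ndufaf6 and Atp5b (3.49%, against 3.23%). Members share arrays and vary together, so their counts are not independent observations.

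**Figure D1:**
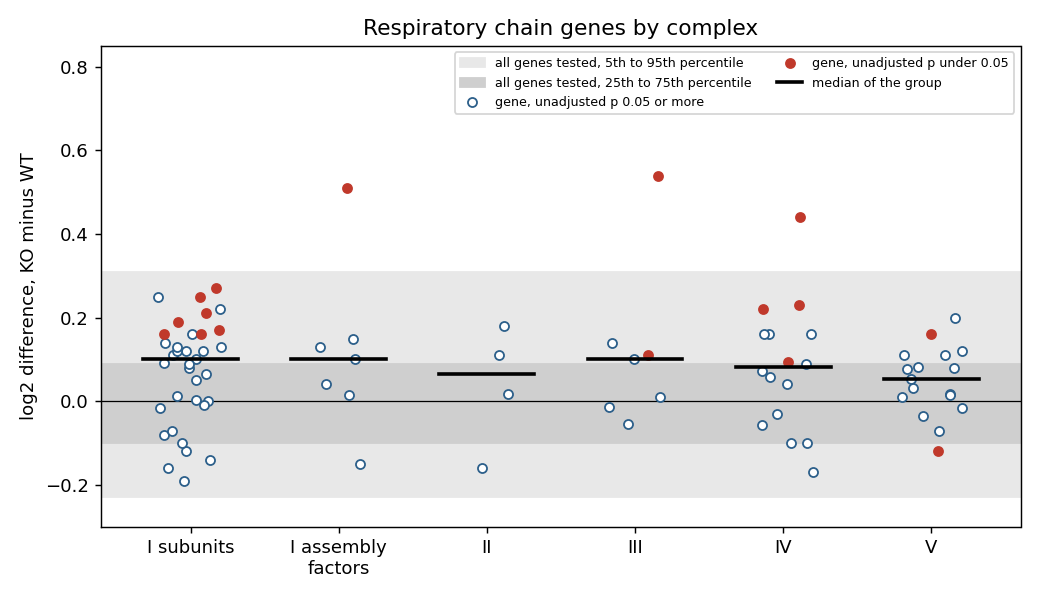
Fitted log2 difference, KO minus WT (vertical axis), of each of the 86 respiratory chain genes tested, by complex (horizontal axis); filled points have an unadjusted p under 0.05, bars are group medians, and grey bands are percentiles over all genes tested. Each group's median lies above 0, between 0.054 for complex V and 0.10 for complex I, and most points lie within the light band, -0.23 to 0.31.

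The difference between the groups was unevenly carried by the arrays. As a mean deviation from each gene's mean over the 7 arrays, members stood at 0.014, 0.039 and 0.064 in KO 1 to KO 3, against -0.016, 0.049, -0.065 and -0.084 in WT 1 to WT 4. WT 2 lay among the KO arrays, and WT 3 and WT 4 lay below all others. Over all genes the same means were -0.014, 0.011 and 0.009 in KO and 0.014, 0.009, 0.001 and -0.030 in WT. WT 2 was the highest WT array in 49 of 86 members (57.0%), against 28.4% of all genes, and WT 3 or WT 4 was the lowest WT array in 56 members (65.1%), against 46.6%.

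**Figure D2:**
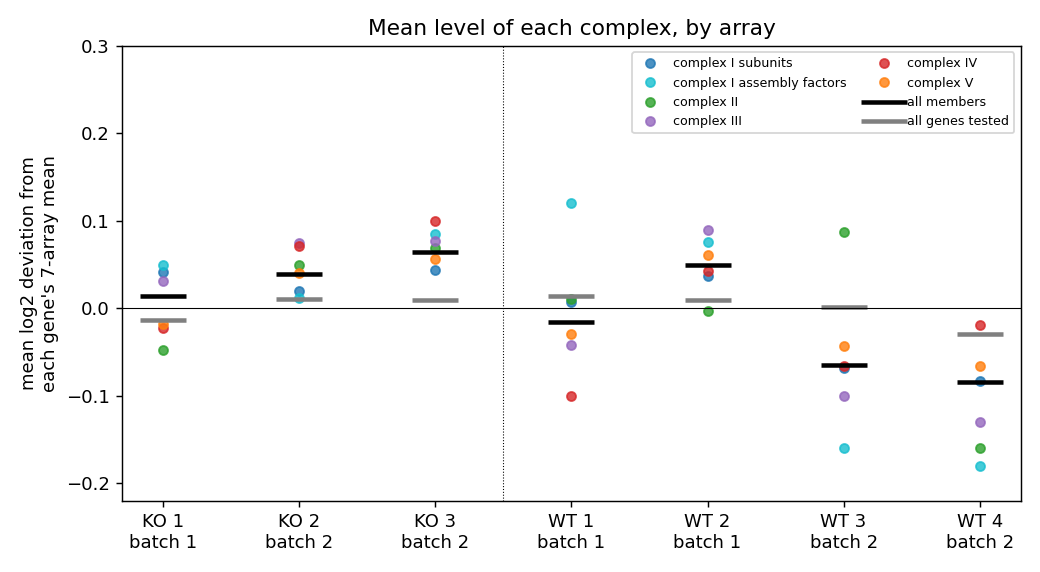
Mean log2 deviation from each gene's mean over the 7 arrays (vertical axis), for each complex (coloured points), all members (black bars) and all genes tested (grey bars), in each array (horizontal axis, with its scan batch). The black bar of WT 2, at 0.049, stands with KO 2 and KO 3, at 0.039 and 0.064, and those of WT 3 and WT 4, at -0.065 and -0.084, are the lowest.

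Other measures of the arrays moved in part with these values. The 3′ control probe set of Gapdh minus its 5′ set on the log2 scale, a measure of RNA integrity and amplification, was -0.154, -0.213 and -0.239 in KO 1 to KO 3, against -0.131, -0.209, -0.121 and -0.121 in WT 1 to WT 4. It was most negative in KO 3, KO 2 and WT 2, the 3 arrays in which the members' mean was highest. With this measure as a further covariate the members' median was 0.017, with 47 of 86 positive and 2 higher at an unadjusted p under 0.05, beside 3.95% of all genes. The same contrast for beta-actin did not separate these arrays: it was -0.301, -0.515 and -0.446 in KO and -0.485, -0.429, -0.497 and -0.448 in WT. The 5 goblet cell markers past the level filter (of 7 on the array) had mean deviations of -0.17, 0.48 and 0.63 in KO and -0.89, 0.25, 0.028 and -0.34 in WT, highest in the same 3 arrays, and Tff3, the trefoil peptide of goblet cells, read 10.77, 11.54 and 11.85 in KO and 8.96, 11.15, 10.75 and 10.88 in WT. The 8 tested muscle markers stood at -0.20, 0.23 and -0.042 in KO and -0.030, -0.090, 0.14 and -0.007 in WT, the 5 tested fibroblast markers at -0.27, 0.60 and -0.12 in KO and -0.40, -0.14, 0.57 and -0.23 in WT, and neither was highest in those 3 arrays. The 9 epithelial markers had mean deviations of -0.22, 0.30 and 0.057 in KO and -0.12, 0.065, 0.050 and -0.14 in WT, also highest in the same 3 arrays, though by little over WT 3. The 6 colonocyte markers past the level filter (of 8 on the array) stood at -0.076, 0.58 and 0.046 in KO. In WT they stood at -0.53, -0.074, 0.026 and 0.027, so that WT 2 lay below WT 3 and WT 4. KO 3 and WT 2 carried Y-linked signal (Eif2s3y at 9.02 and 8.92, against 4.17 to 4.29 in the other arrays). Without these 2 arrays the members' median was 0.080, with 63 of 86 positive. The part of goblet cell or other epithelial content in the result was not tested.

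The 2 scan batches gave different sizes. The members' median difference was 0.012 in scan batch 1, with its 1 KO and 2 WT arrays, and 0.11 in scan batch 2, with 2 of each, while over all genes it was -0.020 and -0.016. A positive difference was seen in 49 members in scan batch 1 and in 69 in scan batch 2, and in both batches in 43 (50%), against 20.6% of all genes. Both batches were negative in 11 members (12.8%), against 29.6% of all genes. By group the medians in scan batch 1 and scan batch 2 were 0.019 and 0.11 for complex I subunits, -0.020 and 0.17 for its assembly factors, -0.063 and 0.16 for complex II, 0.026 and 0.11 for complex III, 0.033 and 0.12 for complex IV and -0.016 and 0.090 for complex V. The difference between the batches was not tested.

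**Figure D3:**
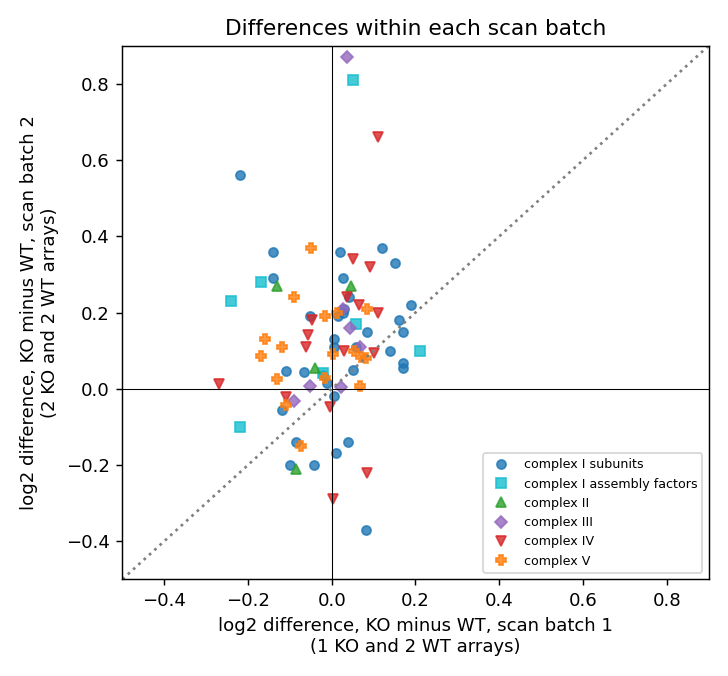
Log2 difference, KO minus WT, of each respiratory chain gene within scan batch 1 (horizontal axis, 1 KO and 2 WT arrays) against that within scan batch 2 (vertical axis, 2 KO and 2 WT arrays); colours and shapes are complexes and the dotted line marks equal values. Uqcrb at 0.036 and 0.87 and Ndufaf1 at 0.051 and 0.81 stand at the top, near 0 in scan batch 1.

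Complex I, the NADH dehydrogenase, had 26 of 35 subunits with a positive difference and a median of 0.10. At an unadjusted p under 0.05, 7 were higher (Ndufa1, Ndufa5, Ndufb3, Ndufc1, Ndufc2, Ndufv1 and Ndufv2) and 0 lower. These were 20% and 0%, against 7.14% and 4.26% of all genes. Ndufa5, a subunit of the arm that reduces ubiquinone, had the smallest p of all members on the probe set kept for each gene. Its log2 level was 11.59, 11.41 and 11.46 in KO 1 to KO 3, against 11.29, 11.50, 11.17 and 11.26 in WT 1 to WT 4. Only WT 2 reached the KO arrays. The fitted difference was 0.21 (SE 0.062), or 1.16-fold, with an adjusted p of 0.391 in limma. It was 0.19 in scan batch 1 and 0.22 in scan batch 2, between 0.18 and 0.25 with any 1 array left out, and 0.15 (SE 0.061) on the gene's second probe set. The exact permutation p over all 35 splits, two-sided, was 0.114.

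Ndufb3, an accessory subunit of the membrane arm, read 10.04, 9.97 and 10.03 in KO 1 to KO 3, against 9.83, 9.97, 9.56 and 9.79 in WT 1 to WT 4. The KO arrays lay above the WT arrays, with KO 2 and WT 2 equal to 2 decimals. The fitted difference was 0.25 (SE 0.089), with 0.15 in scan batch 1 and 0.33 in scan batch 2, an adjusted p of 0.414 in limma and an exact permutation p of 0.0571. Ndufa10, another membrane arm subunit, read 11.02, 10.98 and 11.00 in KO, against 10.87, 10.83, 10.90 and 10.93 in WT. Its KO arrays again lay above all WT arrays, here with WT 2 the lowest, and the fitted difference was 0.11 (SE 0.052). Of the nuclear subunits of the membrane arm, 15 of 17 were positive with a median of 0.13. Those encoded in mitochondrial DNA were not analysed.

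Ndufc2, also of the membrane arm, read 10.68, 10.42 and 10.59 in KO and 10.71, 10.41, 10.13 and 10.14 in WT, so that WT 1 lay above all KO arrays and the other WT arrays below them. Its fitted difference was 0.27 (SE 0.10), the largest among the complex I subunits on the probe sets kept. A set of Ndufab1 that was not kept, of a type that can match several transcripts, differed by 0.38 (SE 0.095). Every KO array lay above every WT array there, with an adjusted p of 0.483 in limma over all probe sets. The kept set of Ndufab1 differed by 0.10 (SE 0.082), and the remaining sets by 0.10 and -0.002. Ndufa11, a membrane subunit known to help hold complex I together, had a negative difference: its log2 level was 10.44, 10.28 and 10.31 in KO, against 10.52, 10.45, 10.53 and 10.46 in WT. Every KO array lay below every WT array, with a difference of -0.14 (SE 0.065), an adjusted p of 0.462 in limma and an exact permutation p of 0.0286. With arrays permuted inside their own scan batch the exact permutation p was 0.0556, the smallest that those 18 arrangements allow. Its second probe set differed by -0.10 with overlapping arrays. The membrane arm subunits Ndufa1 and Ndufc1 differed by 0.16 (SE 0.062) and 0.19 (SE 0.08), and Ndufc1 overlapped in WT 2 alone.

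The peripheral arm, which takes electrons from NADH, had smaller median differences. Of its N module, with the NADH-binding site, 7 of 10 subunits were positive with a median of 0.027, and of its Q module, beside ubiquinone, 3 of 5 with a median of 0.089. Ndufv1, the flavoprotein that binds NADH, read 11.45, 11.73 and 11.73 in KO, against 11.35, 11.47, 11.50 and 11.48 in WT. Only KO 1 lay within the WT range, and the difference was 0.16 (SE 0.058), but the gene's other probe set gave -0.11. Its partner Ndufv2, an iron-sulfur protein, read 11.18, 11.09 and 11.14 in KO and 10.94, 11.11, 10.86 and 11.00 in WT, a difference of 0.17 (SE 0.063) that was 0.16 in scan batch 1 and 0.18 in scan batch 2, but its other probe set gave -0.040 (SE 0.084). Ndufa7, an N module accessory subunit, had the most negative difference of all members on the probe sets kept, at -0.19 (SE 0.15). It was 0.082 in scan batch 1 and -0.37 in scan batch 2. Ndufa4l2, a paralog of Ndufa4 known to be induced by hypoxia, read 6.41, 6.77 and 6.87 in KO and 6.53, 6.49, 7.00 and 7.04 in WT, a difference of -0.16 (SE 0.071), while Ndufa4 itself differed by 0.08 (SE 0.064).

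Assembly factors put complex I together without staying in it, and 6 of the 7 were positive with a median of 0.10. The 79 tested structural subunits of all complexes had a median of 0.081 with 58 positive. Ndufaf1, a chaperone of an intermediate of the membrane arm, was the only assembly factor with an unadjusted p under 0.05. Its log2 level was 6.69, 6.57 and 6.80 in KO, against 6.57, 6.71, 5.98 and 5.77 in WT. WT 3 and WT 4 were low and WT 1 and WT 2 lay among the KO arrays, so the groups overlapped. The difference was 0.51 (SE 0.16), or 1.42-fold, with an adjusted p of 0.409 in limma, 0.051 in scan batch 1 and 0.81 in scan batch 2. Leaving out KO 1, which leaves the fit to scan batch 2 for the genotype, gave 0.81, and the lowest value with any 1 array left out was 0.37. Ndufaf6 read 6.83, 6.83 and 6.82 in KO and 7.23, 6.88, 6.98 and 6.87 in WT, every KO array below every WT array, with a difference of -0.15 (SE 0.10). Ndufaf4 and Ndufaf5 differed by 0.15 (SE 0.11) and 0.13 (SE 0.094), with overlapping arrays.

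Complex II, the succinate dehydrogenase that also serves the citric acid cycle, had 3 of 4 genes positive and 0 at an unadjusted p under 0.05 in either direction. The flavoprotein Sdha read 10.84, 11.09 and 11.06 in KO, against 10.83, 11.12, 10.78 and 10.83 in WT. KO 2, KO 3 and WT 2 stood together above the other 4 arrays. Its difference was 0.11 (SE 0.10), and with the Gapdh measure as covariate -0.074. On the next brightest probe set of Sdha the arrays read 10.81, 10.89 and 10.86 in KO and 10.72, 10.88, 10.44 and 10.54 in WT. The difference there was 0.24 (SE 0.091), with KO 1 beside KO 2 and KO 3. The remaining sets, at mean levels of 5.31 and 4.98, gave -0.059 and -0.015. The iron-sulfur subunit Sdhb differed by 0.017 (SE 0.069), and the membrane anchors Sdhc and Sdhd by -0.16 (SE 0.15) and 0.18 (SE 0.10). Sdhd read 5.66, 5.64 and 5.83 in KO and 5.58, 5.64, 5.64 and 5.28 in WT, near the level filter of 5.279.

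In complex III, the cytochrome bc1 complex, 5 of 7 genes were positive with a median of 0.10. With the mean of all probe sets of each gene, where dim sets count as much as bright ones, that median was -0.015. Uqcrb, a small subunit beside the ubiquinone site, had the largest difference of all members. Its log2 level was 8.94, 9.00 and 9.11 in KO, against 8.70, 9.10, 8.05 and 8.31 in WT. WT 3 and WT 4 were low, WT 1 was in between and WT 2 lay within the KO range. The difference was 0.54 (SE 0.19), or 1.45-fold, with an adjusted p of 0.414 in limma, 0.036 in scan batch 1 and 0.87 in scan batch 2. It was 0.18 with the Gapdh measure as covariate.

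Uqcrq, a further small subunit, read 11.73, 11.78 and 11.73 in KO and 11.65, 11.72, 11.56 and 11.64 in WT on its brightest probe set. The KO arrays lay above the WT arrays by a difference of 0.11 (SE 0.047), at a mean level of 11.69. The gene's other 3 probe sets gave -0.14, -0.032 and -0.14 and overlapped, at far lower mean levels of 5.88, 5.22 and 6.64. The catalytic Rieske protein Uqcrfs1 differed by 0.14 (SE 0.088), and the core proteins Uqcrc1 and Uqcrc2 by -0.055 (SE 0.074) and 0.10 (SE 0.046). Cyc1, the cytochrome c1 of this complex, falls outside the symbol rule and was read with the carriers, at -0.051 (SE 0.059).

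Complex IV, cytochrome c oxidase, had 11 of 16 tested genes positive with a median of 0.081. At an unadjusted p under 0.05, 4 were higher (25%, against 7.14% of all genes): Cox6c, Cox6b1, Cox7a1 and Cox7a2. Cox6c, a small subunit found in all tissues, read 11.34, 11.41 and 11.49 in KO, against 11.16, 11.35, 11.10 and 11.15 in WT. WT 2 again reached the KO range. The difference was 0.23 (SE 0.072), or 1.17-fold, with an adjusted p of 0.409 in limma, and was 0.091 in scan batch 1 and 0.32 in scan batch 2. Cox6b1, the common isoform of a subunit facing the intermembrane space, differed by 0.22 (SE 0.08) on its brighter probe set, with WT 2 above all KO arrays. On its other probe set it read 11.28, 11.22 and 11.23 in KO, against 11.11, 11.19, 11.07 and 11.08 in WT, where the groups did not overlap, with a difference of 0.14 (SE 0.050).

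**Figure D4:**
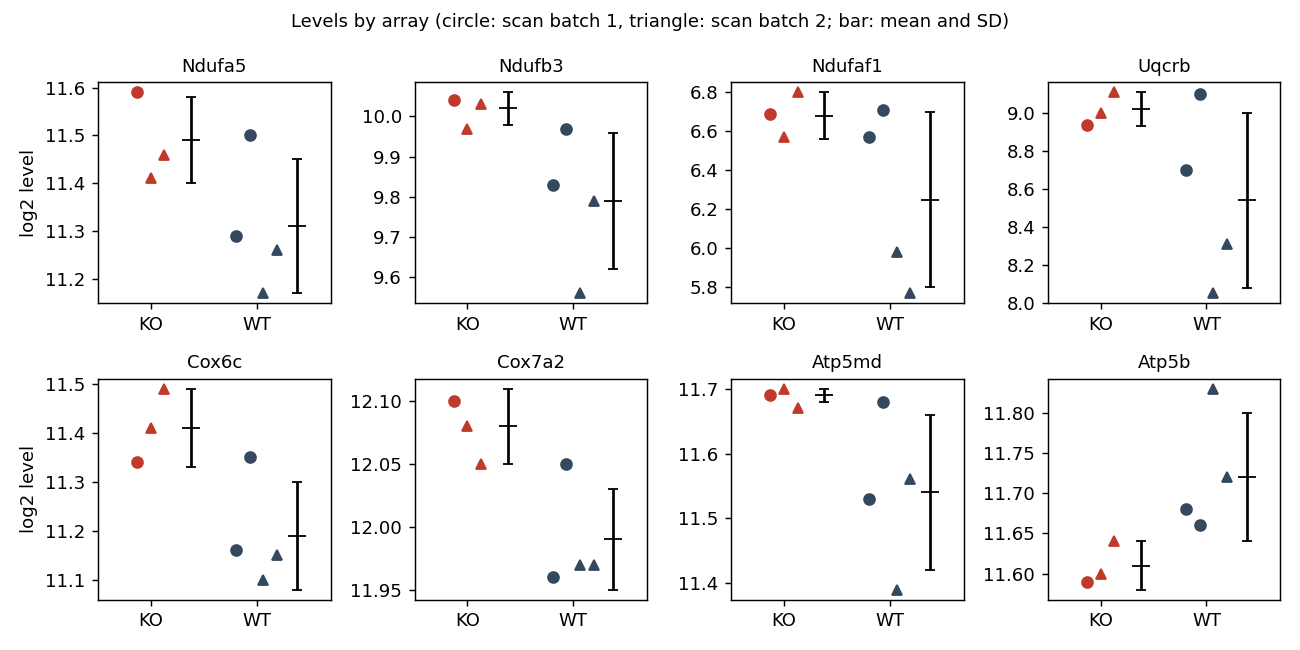
Log2 levels (vertical axes, each with its own range that does not start at 0) of 8 respiratory chain genes in the 3 KO arrays (left) and the 4 WT arrays (right); circles are scan batch 1, triangles scan batch 2, and bars the mean and SD. WT 2, the higher WT circle in all but Atp5b, reaches the KO arrays in Ndufa5, Ndufaf1, Uqcrb, Cox6c and Atp5md, and in Atp5b the KO arrays lie below all WT arrays.

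Several complex IV subunits exist as common and tissue-specific isoforms, which were read side by side on the same arrays. Cox7a2, the common isoform, read 12.10, 12.08 and 12.05 in KO, against 11.96, 12.05, 11.97 and 11.97 in WT. The KO arrays lay above the WT arrays, with KO 3 and WT 2 equal to 2 decimals, and the same was found on its second probe set. The difference was small and even, 0.095 (SE 0.037), with 0.10 in scan batch 1 and 0.093 in scan batch 2, and its adjusted p was 0.417 in limma. Cox7a1, the isoform of heart and skeletal muscle, read 7.40, 7.51 and 7.77 in KO, against 7.06, 7.53, 7.08 and 6.87 in WT. WT 2 exceeded 2 of the KO arrays, and the difference was 0.44 (SE 0.16), or 1.36-fold, with 0.11 in scan batch 1 and 0.66 in scan batch 2. Of the 8 tested muscle markers 3 were positive and 5 negative, with a median of -0.033 and a range of -0.19 to 0.10. Among the muscle genes Ckm, a creatine kinase, differed by 0.029 (SE 0.077). The part of muscle RNA in the Cox7a1 value was not tested. Cox7a2l, a paralog that helps join complexes III and IV into supercomplexes, differed by 0.16 (SE 0.077).

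For the other isoform sets the differences lay on both sides of 0 and the arrays overlapped. Cox4i1 and the hypoxia-responsive Cox4i2 differed by 0.059 (SE 0.057) and -0.10 (SE 0.081), and Cox6a1 and the muscle form Cox6a2 by -0.030 (SE 0.04) and -0.10 (SE 0.11). Cox6b2, the form of testis, differed by 0.073 (SE 0.063). Cox8a, Cox8b and Cox8c differed by 0.089 (SE 0.087), -0.058 (SE 0.07) and -0.17 (SE 0.091). For Cox8c, a testis isoform, the arrays read 7.07, 7.25 and 7.25 in KO and 7.03, 7.11, 7.49 and 7.60 in WT, with only WT 3 and WT 4 above all KO arrays.

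Complex V, the ATP synthase, had 13 of 17 genes positive with the lowest median of the proton-moving complexes, 0.054. At an unadjusted p under 0.05 it had 1 gene on each side (5.88% each, against 7.14% higher and 4.26% lower of all genes). Atp5b, the catalytic beta subunit of the F1 head, was the only member lower at that threshold on the probe set kept for each gene. Its log2 level was 11.59, 11.60 and 11.64 in KO, against 11.68, 11.66, 11.83 and 11.72 in WT. Every KO array lay below every WT array. The difference was -0.12 (SE 0.045), with -0.074 in scan batch 1 and -0.15 in scan batch 2, an adjusted p of 0.414 in limma and an exact permutation p of 0.0571. Its partner in the head, the alpha subunit Atp5a1, differed by -0.072 (SE 0.045), and the gamma subunit of the central stalk, Atp5c1, by 0.12 (SE 0.055). Over the 5 genes of the F1 part, 3 were positive with a median of 0.015. The delta subunit Atp5d, also of the central stalk, differed by 0.017 (SE 0.074) on its brighter probe set but by -0.22 (SE 0.064) on its other one, with an adjusted p of 0.486 in limma over all probe sets and overlapping arrays.

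Atp5md, a small subunit of the membrane part known to favour dimers of the enzyme, read 11.69, 11.70 and 11.67 in KO, against 11.53, 11.68, 11.39 and 11.56 in WT. Only WT 2 reached the KO arrays, and the difference was 0.16 (SE 0.062), with an adjusted p of 0.417 in limma. Atp5j2, another subunit of the membrane part, differed by 0.20 (SE 0.10), with -0.049 in scan batch 1 and 0.37 in scan batch 2. The peripheral stalk and other Fo genes had 6 of 7 positive with a median of 0.078. The 3 genes Atp5g1, Atp5g2 and Atp5g3 encode the same mature c-ring subunit and differed by 0.011 (SE 0.078), -0.035 (SE 0.072) and 0.11 (SE 0.066).

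The genes around the chain were read from lists of the same pathway. Of the other assembly factors, 17 of 32 tested were positive with a median of 0.014. At an unadjusted p under 0.05, 1 was higher (3.12%, against 7.14% of all genes) and 2 were lower (6.25%, against 4.26%). The higher one was Cox17, a copper chaperone of complex IV, at a log2 level of 10.05 ± 0.16 in KO and 9.81 ± 0.09 in WT (SD, n = 3 and n = 4), with a difference of 0.27 (SE 0.076). The lower ones were Uqcc1, a complex III assembly factor, at -0.26 (SE 0.092), which turned to 0.28 on its probe set of largest variance, and Cox15, of haem A synthesis, at -0.29 (SE 0.12). Cox15 read 9.49, 10.07 and 10.06 in KO 1 to KO 3 and 10.17, 9.98, 10.24 and 10.06 in WT, so only KO 1 lay below the WT range. Its difference was -0.58 in scan batch 1 and -0.090 in scan batch 2. Carriers and entry points to the chain had 9 of 13 positive with a median of 0.082, with Pdss2 of ubiquinone synthesis at 0.22 (SE 0.10) and Etfdh, which feeds electrons from fat oxidation, at 0.25 (SE 0.13). None of these genes passed the test over all genes in limma.

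Regulators of mitochondrial biogenesis and DNA upkeep had 11 of 16 positive with a median of 0.059. Polg2, the accessory subunit of the mitochondrial DNA polymerase, read 6.94, 6.70 and 6.94 in KO, against 6.53, 6.61, 6.51 and 6.62 in WT. Every KO array lay above every WT array, with a difference of 0.30 (SE 0.087), an adjusted p of 0.388 in limma and an exact permutation p of 0.0286. Ssbp1, which binds single-stranded mitochondrial DNA, differed by 0.30 (SE 0.18), with -0.13 in scan batch 1 and 0.59 in scan batch 2. The citric acid cycle had 7 of 11 positive with a median of 0.024, and 2 were higher at an unadjusted p under 0.05 (18.2%, against 7.14% of all genes). Both encode subunits of succinyl-CoA ligase: Suclg2 at 0.44 (SE 0.14) and Suclg1 at 0.26 (SE 0.11). Suclg2 read 8.77, 8.85 and 8.92 in KO and 8.43, 8.81, 8.18 and 8.32 in WT, with WT 2 again inside the KO range. Of the supercomplex and ATPase inhibitor genes, 3 of 4 were positive, with Higd2a and Higd1a, both known to bear on complex IV and supercomplexes, at 0.084 (SE 0.042) and 0.19 (SE 0.10).

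The count of members past the adjusted threshold depended on how much each array was trusted. With limma's array weights, estimated from these same 7 arrays, 20 of 86 members passed at an adjusted p under 0.05. Of these members 18 were higher in KO, and of all genes 10.7% passed in either direction. The weights were 0.298, 3.04 and 1.45 for KO 1 to KO 3 and 1.23, 0.442, 2.31 and 0.608 for WT 1 to WT 4, so KO 1 and WT 2 counted least. With equal weights, 0 members passed under any other alternative, and the count higher at an unadjusted p under 0.05 was 2 without KO 3, 4 without KO 2, 3 without WT 3, 6 without WT 1, 7 without WT 4, 23 without KO 1 and 28 without WT 2. In the same order the shares of all genes were 3.37%, 3.49%, 3.81%, 5.86%, 4.15%, 13.4% and 11.1%, so both counts moved with the array left out. At the level of probe sets, 98 of the 148 were positive, and among the 41 genes with several sets, 21 had all sets positive, 6 all negative and 14 mixed. In 30 of the probe sets, of the type that can match several transcripts, signal from near-identical copies cannot be told apart.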

How the data were processed

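RNA of 7 samples (3 KO, 4 WT) was measured on Affymetrix arrays. The authors deposited log2 values for each probe set, computed with RMA (which corrects background, normalizes across arrays and summarises probes), per the submitters' processing notes. No version, filter or batch correction is named in the sources used here, and scanner files were not analysed here. Ties between arrays, present in 19995 of 45141 probe sets, can make the spread look small, and amplification from few cells can add spread.

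Gene names came from the platform annotation, with 551 probe sets of several symbols left out. Of the single-gene sets, 28689 matched RefSeq (GRCm38.p6) by gene number, and 0 symbols needed an update. For each gene the probe set with the highest mean was kept, and the lowest 25% of genes by level (5.279 or less) were left out, which left 12822. The groups were compared in limma 3.58.1 (R 4.3.3) by lmFit and trended eBayes, with scan batch as covariate, a two-sided test and an adjusted threshold of 0.05 (Benjamini-Hochberg); 4 residual degrees of freedom remained, and the median SE was 0.0933. The number of arrays limits the precision. Differences come from the fit, and means and SDs from the values. The fit was tested on simulated data. Single genes were also compared by exact permutation over 35 splits.

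Members, lists and named genes were chosen with earlier results of these data known. The named genes are, in each of the 6 groups, the 3 of smallest p with a higher and the 2 with a lower KO mean, plus isoform sets, Mex3a and 2 genes from each list. Members named beyond these (Ndufa1, Ndufa7, Ndufa10, Ndufab1, Ndufc1, Ndufc2, Ndufv2, Uqcrfs1, Atp5d), Cox15, Cyc1 and the markers were chosen after their values were seen. Alternatives left out each array, a scan batch or the arrays with Y-linked signal, or changed the covariates, level filter, probe set choice, trend, array weights and centring.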

Additional observations from a re-analysis of the deposited data

Results flagged for a closer look

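A few WT values stood apart from the other 3 WT arrays by Dixon's test at the 95% level, out of 58 genes and group means tested; chance flags about 1 in 20 such groups. The Sdhd log2 level of 5.28 in WT 4 was the lowest, against 5.58, 5.64 and 5.64 in the other WT arrays. The Sdha log2 level of 11.12 in WT 2 was the highest, against 10.83, 10.78 and 10.83. The Cox7a2 log2 level of 12.05 in WT 2 was the highest, against 11.96, 11.97 and 11.97.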

How the results depend on the processing

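Of 51 single genes under up to 20 alternatives, 956 of 1015 values kept their direction and their side of the threshold, 21 passed it although the reported value had not, and 38, in 19 genes, turned. The median over all members stayed above 0 throughout, at 0.012 to 0.11. The cause of the changes below was not tested, beyond fewer arrays in some. With the Gapdh difference as covariate, 2 members were higher at an unadjusted p under 0.05 (3.95% of all genes), and the medians were 0.017 for all members, 0.036 for complex I subunits, -0.029 for assembly factors, -0.015 for complex II and 0.004 for complex IV, with Sdha at -0.074, Sdhb at -0.009, Cox4i1 at -0.021, Cox8a at -0.035 and Atp5g1 at -0.057. With array weights 20 members were called, 35 were higher and 8 lower at an unadjusted p (17.3% and 14.4% of all genes), and Uqcr11 was 0.001. With arrays centred on their median 9 were higher (6.67% of all genes), Sdhb was -0.003 and Atp5g1 -0.009, and the median of all genes was -0.039. Without a term for scan batch 7 were higher and 0 lower (4.09% and 3.09% of all genes), and without the trend 9 were higher (7.32%). The complex III median was -0.015 over every probe set, over the mean of sets and with the set of largest variance. In each of these, 2 members or member probe sets were lower at an unadjusted p. The shares of all probe sets or genes were 3.81%, 4.19% and 4.2%. The mean of sets gave Uqcrq -0.051 and Atp5g1 -0.007, and the set of largest variance gave Ndufv1 -0.11, Uqcrq -0.14 and Uqcc1 0.28.

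In scan batch 1 alone 0 were higher and 0 lower (1.29% and 2.11% of all genes), with medians of 0.012 for all members, 0.019 for complex I subunits, -0.020 for assembly factors, -0.063 for complex II and -0.016 for complex V. There Sdha was -0.13, Sdhb -0.041, Cox8c 0.002, Atp5j2 -0.049, Cox4i1 -0.056, Cox6a2 0.083, Cox8a -0.048, Atp5g1 -0.016, Atp5g3 -0.016, Etfdh -0.033, Ssbp1 -0.13 and Higd1a -0.015. In scan batch 2 alone 31 were higher and 6 lower (15.3% and 9.05% of all genes), the complex II median was 0.16, Uqcr11 was 0.008, Cox4i2 0.012 and Atp5g2 0.025. Without the arrays with Y-linked signal Uqcr11 was 0.005. Leaving out each array in turn gave 2 to 28 members higher and 0 to 4 lower, beside 3.37% to 13.4% and 2.14% to 7.63% of all genes. The same fits gave complex II medians of 0.016 to 0.16, Uqcr11 at -0.027 to 0.008, Cox4i2 at -0.15 to 0.012, Atp5g2 at -0.063 to 0.025, Sdhb at -0.040 to 0.055, Atp5g1 at -0.030 to 0.057 and Uqcrc1 at -0.12 to 0.002. No paired analysis was possible because the labels match no KO array to a WT array. The numbers in KO 1 to KO 3 and WT 1 to WT 4 were assigned here. Only 4 residual degrees of freedom and low levels near 5.279 limit what these arrays can show.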
